A study of Homo sapiens with 36 samples.

Results

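EA.hy926 cells exposed to 100 µM perfluorooctanoic acid (PFOA) for 48 h were compared with cells given the vehicle for the same time. The comparison holds 3 libraries at 100 µM and 3 vehicle libraries, chosen by their labelled dose and time, of 36 libraries in the series. It was made over the 12233 genes whose mean over the 12 libraries of that exposure time was at least 10, out of 47137 listed genes, of which 18048 held values. EA.hy926 is a human hybrid line made by fusing an endothelial cell with a lung carcinoma line, so it carries genes of both parents. The groups were 100 µM PFOA, 10 µM PFOA, 1 µM PFOA and the vehicle control, each of 3 biological replicates with the genotype label WT, and the vehicle was 0.05% DMSO. All were cultures of the same line grown with serum and a hypoxanthine, aminopterin and thymidine supplement, in which aminopterin is an inhibitor of folate metabolism. Cells were plated in 35-mm dishes, exposed on the following day and lysed after 48 h. The labels do not say whether replicates were separate passages, so p-values measure the spread between these dishes only. The comparison addresses what a short exposure to a high dose does to messenger RNA levels in this hybrid line.

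PFOA is a persistent perfluoroalkyl acid that resembles a fatty acid and is known, mainly from rodent liver, as an activator of the nuclear receptor PPAR-alpha. Cells that lack an amino acid, or whose mitochondria or endoplasmic reticulum are stressed, raise translation of the transcription factor ATF4. ATF4 pairs with factors of the C/EBP family on composite elements in genes for amino acid synthesis, amino acid transport and tRNA charging. Endothelial cells are marked by junction proteins, Notch signalling and the flow-responsive factor KLF2, and immediate early genes such as FOS respond to serum and kinase signals.

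Values are normalised counts, in which the authors scaled each library's reads by its size factor. Differences are on the log2(value + 1) scale, 100 µM minus control, with the standard error from limma, and this scale understates the change of low genes. Recovered reads per library ran from 18444181 to 19466331 over the 12 libraries. The step, by which a library's reads were multiplied, was 1.16, 1.36 and 0.827 at 100 µM, against 0.864, 0.807 and 1.01 in controls. Values and gaps between groups thus hold for the scaled values and depend on these steps. The first principal component held 78.0% of the variance, and its score was 47.8, 53.03 and -46.5 in replicates 1 to 3 at 100 µM, against -24.4, -40.9 and 21.8 in controls. Replicate 3 at 100 µM thus stood apart from the other 2 of its group, and control replicate 3 from the other 2 controls. Ribosomal protein genes took 19.9, 19.6 and 14.1% of the reads at 100 µM, against 14.4, 12.2 and 17.2% in controls, and mitochondrially encoded genes took 9.95, 10.04 and 6.49% at 100 µM, against 6.66, 6.39 and 8.35% in controls. Since libraries of 1 group lay far apart on this component, differences are also given from a fit that adds the component as a covariate. The component was computed from the same genes, and its part in the differences was not tested beyond that fit.

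**Figure D1:**
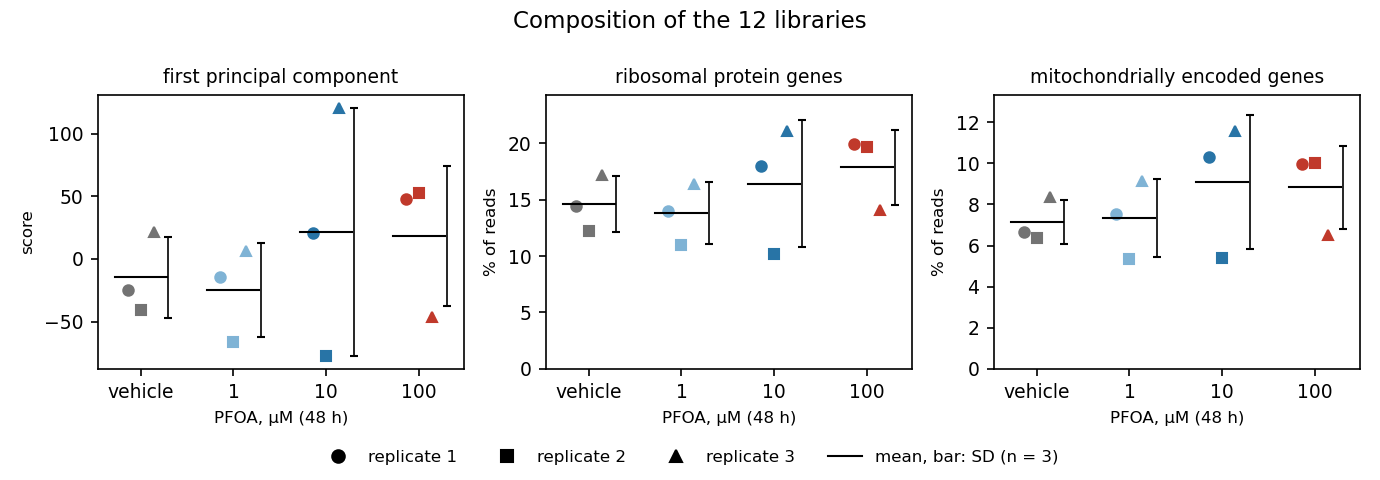
Score on the first principal component and percentage of reads in ribosomal protein and mitochondrially encoded genes, by PFOA dose at 48 h; points are libraries, lines means and bars SD (n = 3). At 100 µM, replicate 3 lies below replicates 1 and 2 in all 3 panels, and the groups at 100 µM and vehicle overlap.

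The endothelial label was checked against marker genes in the 6 libraries at 100 µM and vehicle. CDH5 (VE-cadherin), PECAM1, TIE1, ESAM, CLEC14A, ERG and TEK were all present, with TEK the lowest of them at 227, 356 and 740.5 at 100 µM, against 541, 640.4 and 352 in controls. The von Willebrand factor gene VWF was low, at 90.9, 135 and 66.2 at 100 µM, against 76.9, 82.3 and 88.3 in controls. The markers CLDN5 and KDR lay below the filter, with KDR at no more than 2.48 at 100 µM and 5.19 in controls. Keratin genes of the epithelial parent were high, for example KRT18 at 45240.4, 44057 and 26689 at 100 µM, against 20632, 15377 and 44988 in controls, while CDH1 (E-cadherin) was at 0 in all 6 libraries. The leukocyte gene PTPRC was at 0 in all 6 as well, and CD14 reached at most 8.19 at 100 µM and 2.59 in controls. Leukocyte markers were not all absent, since 3 of 9 listed passed the filter. Their summed value was 3486, 4712 and 2072.5 at 100 µM, against 2834, 2578 and 3566 in controls, with overlap. In these bulk samples, fewer cells of a type and less RNA per cell cannot be told apart.

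No gene passed the unweighted test. Of 12233 genes, limma called 0 between 100 µM and control at an adjusted p under 0.05 (0% called), with a smallest adjusted p of 0.993. At an unadjusted p under 0.05 there were 244 genes, of which 86 were higher and 158 lower at 100 µM (0.703% and 1.29% of genes tested). On the recovered reads, edgeR called 0 with 232 at an unadjusted p under 0.05, and DESeq2 called 0 with 441. Leaving out 1 library at a time, limma gave 82 to 124 such genes, except 506 without 100 µM replicate 3. With libraries weighted by their estimated quality, limma called 6792 genes, with weights that ran from 0.115 to 9.23 between libraries. The 3 libraries at 100 µM lay wholly above the 3 controls for 528 genes (4.32%) and wholly below them for 790 (6.46%). Adjusted for the first component, limma again called 0 genes, with a smallest adjusted p of 0.197, while 2015 genes had an unadjusted p under 0.05, of which 1174 were higher and 841 lower (9.6% and 6.87%). The genes named from here on therefore did not pass the unweighted test, and "higher" and "lower" describe their measured values.

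Genes were ranked for naming only where the libraries of both groups did not overlap and the mean was at least 50. Symbols of uncharacterised loci, read-through and antisense genes were left out. Separated libraries were thus a condition of naming and not a result. ASNS, which encodes asparagine synthetase, had the smallest unadjusted p among genes ranked by this rule that were higher at 100 µM. Its values were 2362, 2724 and 2282 at 100 µM, against 1381, 1465 and 1096 in controls, so the lowest exposed library lay far above the highest control. The difference was 0.91 ± 0.24, and 0.85 ± 0.17 adjusted for the first component. It stayed between 0.78 and 0.99 when any single library was left out. PLCB4, a phospholipase C, had values of 363, 491 and 672 at 100 µM, against 281, 244 and 274 in controls, and a difference of 0.89 ± 0.26. For ST6GALNAC3, a sialyltransferase, they were 242, 239 and 196 at 100 µM, against 128, 102 and 95.4 in controls, with a difference of 1.05 ± 0.31. In both genes every exposed library was above every control, as the naming rule required. The WD-repeat gene WDR89 had 290.0, 351 and 289.6 at 100 µM, against 182, 192 and 184 in controls. FHIP2A, whose product binds HOOK adaptors of the dynein motor, had 354, 434 and 445 at 100 µM, against 241, 237 and 245 in controls. The control libraries of these 2 genes lay within a narrow band. The other 10 genes named by the same rule on the higher side were WDR72, AGFG1, FBXO45, MYNN, CDCA2, DMXL1, KBTBD6, FAR2, SPATA7 and MBNL1, with differences from 0.57 to 0.75. Among them CDCA2 recruits protein phosphatase 1 to chromatin, FAR2 reduces fatty acyl-CoA to fatty alcohols, DMXL1 takes part in assembly of the vacuolar proton pump and MBNL1 regulates splicing. MBNL1 stood at 2833, 3266 and 3339 at 100 µM, against 1995, 2048 and 1801 in controls, with a difference of 0.69 ± 0.25.

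On the lower side POLGARF had the smallest unadjusted p among genes ranked by the same rule. It is a reading frame that lies within the transcript of POLG, the mitochondrial DNA polymerase. Its values were 143, 90.1 and 181 at 100 µM, against 382, 264 and 337 in controls, a difference of -1.28 ± 0.30. POLGARF lies on chromosome 15 from 89330208 to 89333809, inside POLG on chromosome 15 from 89316320 to 89334824 (RefSeq, GRCh38.p14), so reads could have been counted to either gene and the value is uncertain. The 2 genes held exactly equal values in 3 of the 12 libraries, among them control replicate 3. Their sum was 692, 699 and 761 at 100 µM, against 964, 997 and 674 in controls, which overlapped, and POLG alone differed by 0.14 ± 0.34. JUND, an AP-1 subunit, had 700.0, 631 and 654 at 100 µM, against 1014, 1130.0 and 1616 in controls, a difference of -0.89 ± 0.26. AKNA, an AT-hook protein, was at 175, 121 and 174 at 100 µM, against 246, 269 and 294 in controls, a difference of -0.80 ± 0.23. All exposed libraries were below all controls in both, which the naming rule required. ALYREF, an adaptor for export of messenger RNA, had 648, 467 and 725 at 100 µM, against 1173, 1107 and 1264 in controls, a difference of -0.97 ± 0.30. MLLT1, a reader of acetylated histones in elongation complexes, had 651, 556 and 921 at 100 µM, against 1298, 1522 and 1419.8 in controls, a difference of -1.02 ± 0.33. LPCAT3, which inserts polyunsaturated acyl chains into phospholipids, had 461, 394 and 550.2 at 100 µM, against 812, 859.8 and 1006 in controls, a difference of -0.94 ± 0.31. In each of these 3 genes replicate 3 was the highest of the exposed libraries, and the naming rule required it to lie below every control. The remaining names on this side were CLEC14A, FAM43A, EPOP, MAP2K3, NELFA, BBC3, SREBF1, SERTAD3 and EDC4, with differences from -0.91 to -0.57. MAP2K3 is a kinase that activates p38, NELFA belongs to the factor that pauses RNA polymerase II, BBC3 encodes the pro-apoptotic protein PUMA and EDC4 takes part in decapping of messenger RNA.

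**Figure D2:**
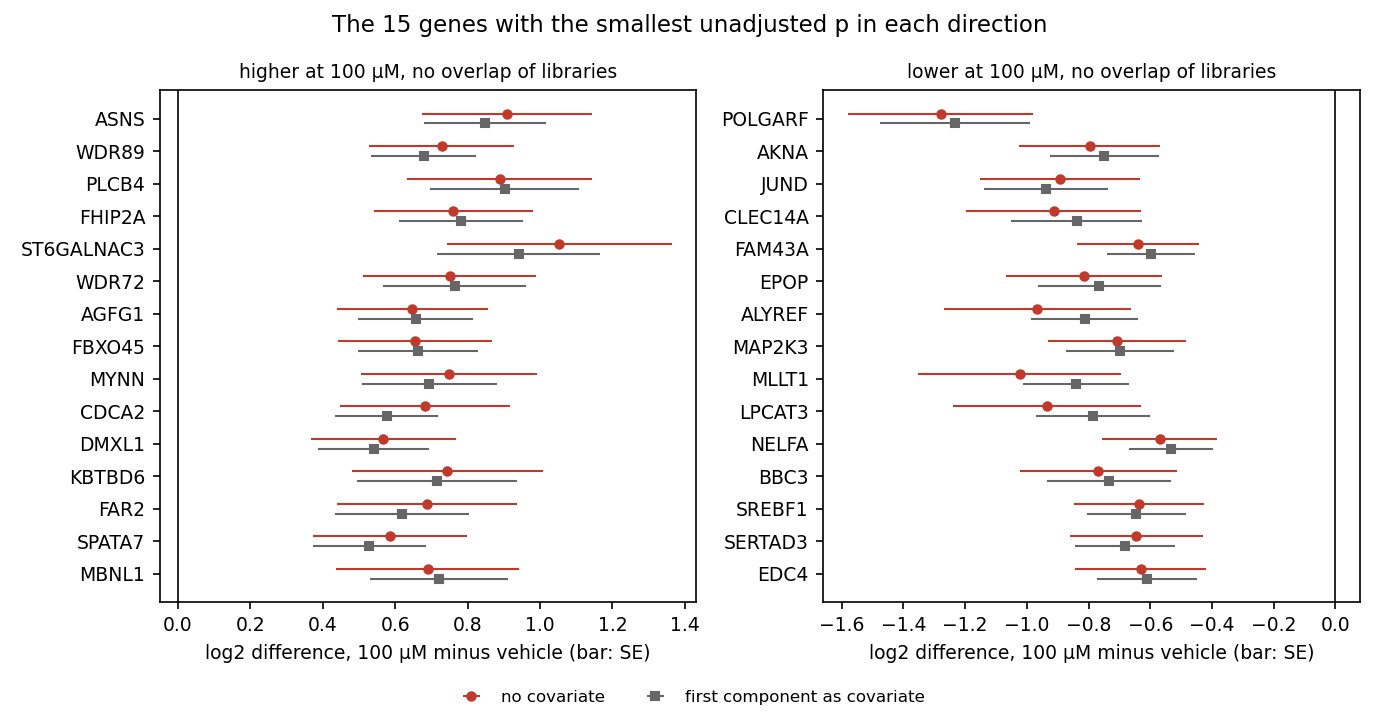
Log2 difference, 100 µM minus vehicle, of the 15 nameable genes with the smallest unadjusted p and no overlap of libraries in each direction; red circles are the fit without a covariate, grey squares the fit adjusted for the first principal component, and bars are standard errors. Each gene keeps its direction with the covariate, and none passed the adjusted test.

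Genes of the ATF4 response to amino acid stress were higher more often than lower. Of 29 listed genes 27 were tested, of which 18 had a difference above 0 and 9 below 0, with a median of 0.18. Over all 12233 genes, 6564 were above 0 and 5666 below, with a median of 0.03. The groups did not overlap for 3 members that were higher (CEBPG, NUPR1 and ASNS) and 1 that was lower (CEBPB), beside 4.32% and 6.46% of all genes, and none was called. The list's median lay between 0.14 without control replicate 2 and 0.28 without 100 µM replicate 3, and was 0.20 with the covariate but 0.067 after quantile normalization.

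The first members of the list are its transcription factors. ATF4 itself had 7818, 6099.7 and 5987 at 100 µM, against 5507, 4843 and 6444 in controls, and these ranges overlapped. CEBPG, a dimer partner of ATF4, had 752, 662 and 994 at 100 µM, against 652, 638 and 469.9 in controls, a difference of 0.45 ± 0.29. NUPR1, a stress-induced chromatin protein, was low throughout, at 20.97, 40.9 and 14.1 at 100 µM, against 4.32, 4.03 and 13.2 in controls, a difference of 1.73 ± 0.85. In CEBPG and NUPR1 every exposed library was above every control, though by little in the nearest pair. DDIT3, which encodes CHOP, had 1224, 1297 and 790.1 at 100 µM, against 618, 514 and 1008 in controls, and overlapped because replicate 3 at 100 µM lay below control replicate 3. CEBPB, another C/EBP factor, went the other way, with 1195, 962 and 894 at 100 µM, against 1419, 1596 and 1370.1 in controls, a difference of -0.53 ± 0.34.

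Among the enzymes of amino acid synthesis, ASNS was described above, and the enzymes of serine synthesis varied with the replicates. PHGDH, the entry enzyme, had 5068, 6981 and 2316 at 100 µM, against 2395, 2147 and 2875 in controls, a difference of 0.82 ± 0.51 that was 0.48 ± 0.15 with the covariate. PSAT1, the next enzyme, had 445, 628 and 1004 at 100 µM, against 540.1, 721 and 388 in controls, a difference of 0.30 ± 0.47 that was 0.61 ± 0.19 with the covariate. In PHGDH replicates 1 and 2 were above all controls and replicate 3 was not, and in PSAT1 replicate 3 was the highest. CHAC1, which degrades glutathione, is among the stress effectors and had 188, 319 and 79.4 at 100 µM, against 33.7, 37.9 and 104 in controls. Its difference of 1.70 ± 0.72 rested on replicates 1 and 2, since replicate 3 lay below control replicate 3, and it was 1.20 ± 0.25 with the covariate. GDF15, a secreted stress cytokine, and DDIT4, an inhibitor of mTOR signalling, differed by 0.18 ± 0.40 and -0.22 ± 0.21, with overlapping groups. FGF21 and SLC6A9 were below the filter.

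The 4 promoter windows that follow belong to genes of this response or of amino acid handling and hold TGATGNAA, the core letters of the composite element that ATF4 and C/EBP factors bind. They run from 250 bases before to 50 bases after a RefSeq start in GRCh38.p14, 5′ to 3′ on the gene's strand, at chr7:97872359-97872658 (minus strand) for ASNS, chr15:40953221-40953520 (plus) for CHAC1, chr11:3057374-3057673 (minus) for CARS1 and chr2:64989149-64989448 (plus) for SLC1A4, and capitals mark the match on either strand. ASNS, CARS1 and SLC1A4 have 2 RefSeq windows each, of which 1 is shown.
ASNS: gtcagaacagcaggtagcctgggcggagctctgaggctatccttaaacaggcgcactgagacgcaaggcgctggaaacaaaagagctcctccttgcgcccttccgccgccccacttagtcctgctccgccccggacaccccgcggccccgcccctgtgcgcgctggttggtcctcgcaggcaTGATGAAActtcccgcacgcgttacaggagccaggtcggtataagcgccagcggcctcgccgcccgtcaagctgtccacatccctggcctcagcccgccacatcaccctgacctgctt
CHAC1: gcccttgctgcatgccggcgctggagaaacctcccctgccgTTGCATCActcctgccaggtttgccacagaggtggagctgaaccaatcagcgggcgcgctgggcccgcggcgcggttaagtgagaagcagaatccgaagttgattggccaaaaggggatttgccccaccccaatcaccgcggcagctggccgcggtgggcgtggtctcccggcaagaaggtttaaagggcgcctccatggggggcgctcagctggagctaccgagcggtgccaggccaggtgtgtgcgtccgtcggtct
CARS1: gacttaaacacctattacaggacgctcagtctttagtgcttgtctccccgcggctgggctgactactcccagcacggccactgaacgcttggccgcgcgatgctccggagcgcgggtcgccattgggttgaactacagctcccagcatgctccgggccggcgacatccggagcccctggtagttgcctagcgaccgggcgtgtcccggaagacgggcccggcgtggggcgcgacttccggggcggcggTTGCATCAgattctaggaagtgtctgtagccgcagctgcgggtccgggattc
SLC1A4: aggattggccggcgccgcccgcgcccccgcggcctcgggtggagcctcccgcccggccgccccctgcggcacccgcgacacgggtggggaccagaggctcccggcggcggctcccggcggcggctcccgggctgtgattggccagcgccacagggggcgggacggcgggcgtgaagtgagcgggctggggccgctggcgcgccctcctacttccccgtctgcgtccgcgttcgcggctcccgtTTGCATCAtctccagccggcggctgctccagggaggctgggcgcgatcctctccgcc
The match begins 68 bases before the start in ASNS, 209 in CHAC1, 2 in CARS1 and 7 in SLC1A4, and in the last 3 it is read on the opposite strand. Of 35116 RefSeq windows 3.62% held a match, and of 9987 tested genes with a window 2.79%. A match was present in 5 of 21 ATF4 response genes with a window, 7 of 16 tRNA synthetase genes and 5 of 10 amino acid transporter genes. These are letter matches and not measured binding sites.

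The cytosolic aminoacyl-tRNA synthetases, which load amino acids onto tRNAs, were mostly higher at 100 µM. All 20 were tested, 17 were above 0 and 3 below, with a median of 0.39 beside 0.03 over all genes. The median lay between 0.26 without 100 µM replicate 2 and 0.43 without 100 µM replicate 3, and was 0.20 after quantile normalization. The groups did not overlap for 8 that were higher (AARS1, CARS1, FARSB, LARS1, MARS1, SARS1, WARS1 and YARS1) and for 0 that were lower, where 4.32% and 6.46% of all genes did so. LARS1, which charges leucine, had 3717, 4013 and 3683 at 100 µM, against 2949.6, 3046 and 2019.6 in controls, a difference of 0.53 ± 0.23. CARS1, which charges cysteine, had 2533, 2461 and 1953 at 100 µM, against 1773, 1620.4 and 1437 in controls, a difference of 0.52 ± 0.23. The gap between the groups was wider in LARS1 than in CARS1. The alanine enzyme AARS1 had 4933, 6057 and 3649 at 100 µM, against 3130.2, 2869.7 and 3331 in controls, a difference of 0.62 ± 0.36. MARS1, the methionine enzyme, had 4736, 4709 and 4569 at 100 µM, against 4002, 3979.5 and 3984 in controls, a difference of 0.23 ± 0.23. On the scaled values MARS1 was thus a small but even difference, with both groups tightly spaced. VARS1, for valine, had 4847, 7336 and 2207 at 100 µM, against 2549, 2318 and 3786 in controls, and overlapped because replicate 3 lay below every control. The same held for a phenylalanine subunit, FARSA, at 0.41 ± 0.64. EPRS1, for glutamate and proline, was below 0 at -0.05 ± 0.28 with overlap. With the covariate the median of the list was 0.29, and 8 members had an unadjusted p under 0.05 on the higher side, beside 9.6% of all genes. Ribosomal protein genes, which moved with the first component, were also higher at 100 µM, as given further on, and the synthetases' values were not separated from theirs beyond the covariate fit.

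Amino acid transporters were split. Of 11 tested, 6 were above 0 and 5 below, with a median of 0.03 that ranged between -0.33 without 100 µM replicate 3 and 0.17 without 100 µM replicate 1 and was -0.04 after quantile normalization. With the covariate the median was 0.21, with 4 members at an unadjusted p under 0.05 on the higher side and 0 on the lower, beside 9.6% and 6.87% of all genes. SLC1A4, a carrier of alanine, serine and cysteine, was the member without overlap, at 103, 98.3 and 94.3 at 100 µM, against 74.3, 59.7 and 56.8 in controls, a difference of 0.63 ± 0.26. Of all genes 4.32% lay wholly above the controls and 6.46% wholly below, so 1 of 11 is not far from these shares. SLC3A2, the heavy chain of several exchangers, had 6198, 6779 and 4209.5 at 100 µM, against 3373, 2984 and 5047 in controls. SLC7A11, the cystine carrier, had 207, 363 and 862 at 100 µM, against 375, 421 and 372 in controls. Replicate 3 was the lowest exposed library for SLC3A2 and the highest for SLC7A11.

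**Figure D3:**
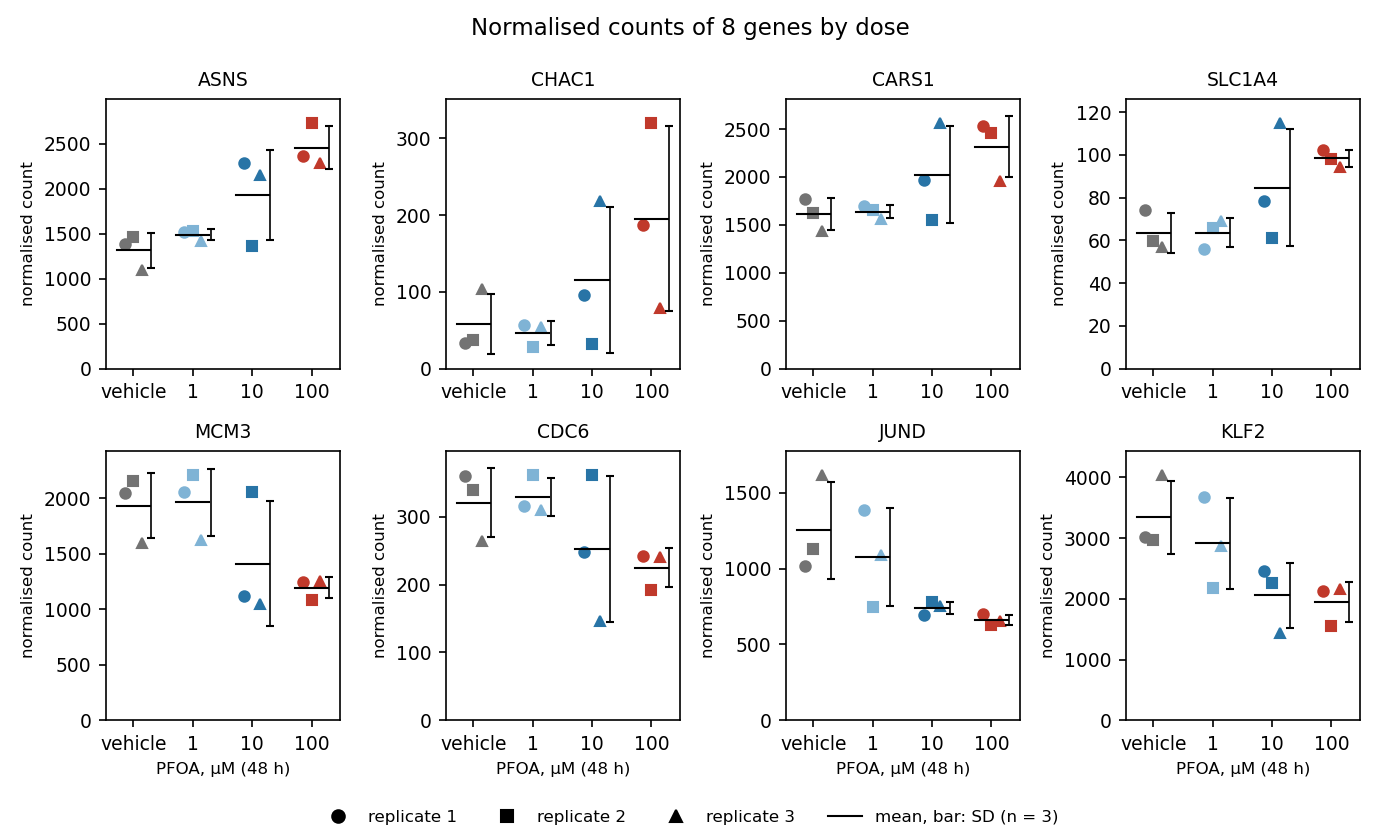
Normalised counts (vertical axis, from 0) of 8 genes in cells given vehicle or 1, 10 or 100 µM PFOA for 48 h; points are libraries with a symbol per replicate, lines are means and bars SD (n = 3). ASNS, CARS1 and SLC1A4 lie above all vehicle libraries at 100 µM, MCM3, CDC6, JUND and KLF2 lie below them, and the libraries at 10 µM vary more than those at 100 µM in MCM3 and CDC6.

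Genes of DNA replication were mostly lower at 100 µM. All 45 listed genes were tested, 35 lay below 0 and 10 above, and the median was -0.32, between -0.35 without control replicate 3 and -0.25 without 100 µM replicate 3. In 8 genes (MCM3, MCM4, CDC6, ORC1, ORC6, GINS4, CHAF1B and CDC25A) the exposed libraries lay wholly below the controls and in 0 wholly above, where 6.46% and 4.32% of all genes did so. With the covariate the median was -0.26, and 13 genes had an unadjusted p under 0.05 on the lower side and 0 on the higher, beside 6.87% and 9.6% of all genes. None was called in either fit.

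By role, the 7 MCM genes, most of which encode the helicase that unwinds DNA at the fork, had a median of -0.34. MCM3 had 1249, 1084 and 1250.1 at 100 µM, against 2042, 2153 and 1600.5 in controls, a difference of -0.69 ± 0.28. MCM4 had 729, 697 and 799 at 100 µM, against 1010.3, 979 and 823 in controls, a difference of -0.33 ± 0.19. MCM5 was the exception at 0.20 ± 0.50, with 1555, 2146 and 739.6 at 100 µM, against 1072, 1045 and 1463 in controls, where replicates 1 and 2 lay above the controls and replicate 3 below them. The 9 genes of origin licensing and firing had a median of -0.51. ORC6, a subunit of the origin recognition complex, had 161, 113 and 233 at 100 µM, against 296, 314 and 291 in controls, a difference of -0.89 ± 0.44. CDC6, which loads the helicase, had 242, 192 and 241 at 100 µM, against 360.4, 339 and 264 in controls, a difference of -0.51 ± 0.30. The gap between the groups was wider in ORC6 than in CDC6. The 17 polymerase and fork genes had a median of -0.10 and differed among themselves. CHAF1B, a histone chaperone subunit at the fork, had 97.8, 106 and 167 at 100 µM, against 227, 245 and 184 in controls, a difference of -0.85 ± 0.33. PCNA, the sliding clamp, had 1662, 1299 and 3229 at 100 µM, against 3686, 3496 and 2809 in controls, a difference of -0.79 ± 0.42 with 1 exposed library above a control. The polymerase genes POLE2 and PRIM1 differed by 0.17 ± 0.20 and 0.01 ± 0.23. The 6 genes of nucleotide supply had a median of -0.31. TYMS (thymidylate synthase) had 567, 657 and 1777 at 100 µM, against 1850.3, 2109 and 1346 in controls. TK1 (thymidine kinase) had 4305, 6164 and 1694 at 100 µM, against 2683, 2385 and 4117 in controls. In TYMS replicates 1 and 2 lay below the controls and replicate 3 among them, while in TK1 replicates 1 and 2 lay above the controls and replicate 3 below them. The phosphatase CDC25A, under the G1/S regulators, had 93.2, 105 and 103 at 100 µM, against 161, 131 and 138 in controls, a difference of -0.50 ± 0.23.

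The promoter windows of MCM3 (chr6:52284693-52284992, minus strand) and CDC6 (chr17:40287629-40287928, plus strand), from RefSeq in GRCh38.p14 and of the same extent as those above, are shown because both genes lay wholly below the controls and hold letters that E2F factors, the regulators of S-phase genes, are known to bind. Capitals mark TTTCCCGC in MCM3 and TTTGGCGC in CDC6.
MCM3: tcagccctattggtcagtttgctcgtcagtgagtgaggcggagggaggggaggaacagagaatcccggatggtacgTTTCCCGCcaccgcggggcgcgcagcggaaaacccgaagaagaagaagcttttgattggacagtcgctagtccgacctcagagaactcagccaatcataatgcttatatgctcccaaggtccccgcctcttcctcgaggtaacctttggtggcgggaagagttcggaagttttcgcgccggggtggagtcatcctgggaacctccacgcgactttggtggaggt
CDC6: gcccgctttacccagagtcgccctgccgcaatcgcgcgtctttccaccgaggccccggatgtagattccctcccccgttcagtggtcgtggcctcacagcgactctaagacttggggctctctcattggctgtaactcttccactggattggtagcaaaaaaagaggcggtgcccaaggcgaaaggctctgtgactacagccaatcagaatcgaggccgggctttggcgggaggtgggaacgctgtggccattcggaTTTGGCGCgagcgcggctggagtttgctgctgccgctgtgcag
On both strands, TTTCCCGC was found in 11 of 38 replication genes with a window and in 3.39% of tested genes (1.63% of all windows). TTTGGCGC was found in 10 of 38 replication genes, in 1.35% of tested genes and in 0.652% of all windows. E2F1 had 914, 987 and 483 at 100 µM, against 907, 936 and 1142 in controls, with overlapping groups.

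Mitotic genes, which act after replication, were split. Of 28 tested, 9 were above 0 and 19 below, with a median of -0.14 that lay between -0.29 without 100 µM replicate 3 and -0.05 without control replicate 2 and was 0.04 with the covariate. CDCA8, a subunit of the chromosomal passenger complex, had 526, 452 and 424 at 100 µM, against 764, 784 and 776 in controls, a difference of -0.73 ± 0.25. KIF11, the spindle motor, went the other way, with 789.7, 732 and 745 at 100 µM, against 628, 644 and 412 in controls, a difference of 0.46 ± 0.23. Neither gene's groups overlapped.

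Immediate early genes and the feedback genes of MAP kinase signalling had the lowest median of the 34 lists. Of 35 listed genes 32 were tested, 28 below 0 and 4 above, with a median of -0.52. The exposed libraries lay wholly below the controls for 11 genes (FOS, FOSB, JUN, JUNB, JUND, NAB2, SRF, KLF2, IER5, ZFP36 and SPRY4) and wholly above for 0, beside 6.46% and 4.32% of all genes. The median lay between -0.63 without control replicate 3 and -0.34 without control replicate 2, and was -0.27 with the covariate.

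Of the 7 AP-1 subunits, which form dimers that drive growth and stress genes, 6 were below 0. FOS had 16.3, 24.6 and 52.95 at 100 µM, against 74.3, 114 and 53.8 in controls, a difference of -1.44 ± 0.70 in which the nearest libraries were almost level. JUN had 4819.9, 4643 and 5493 at 100 µM, against 7588, 7793 and 6237 in controls, a difference of -0.53 ± 0.30. JUNB had 1448, 1141 and 1162 at 100 µM, against 1617, 1459 and 2379.9 in controls, a difference of -0.52 ± 0.26. The gap between the groups was wider in JUN than in JUNB. FOSL1 was the subunit above 0, at 0.17 ± 0.35 with overlapping groups. SRF, which drives immediate early genes after serum, had 398, 469.5 and 453 at 100 µM, against 623, 619 and 669 in controls, a difference of -0.53 ± 0.21. NAB2, a corepressor induced by EGR factors, had 266, 239 and 306 at 100 µM, against 439, 413 and 521 in controls, a difference of -0.76 ± 0.27. Both had no overlap and a similar difference with the covariate, -0.49 ± 0.16 for SRF and -0.68 ± 0.20 for NAB2. EGR1 was low, at 38.4, 34.1 and 63.7 at 100 µM, against 70.9, 91.1 and 52.8 in controls, and overlapped. The flow-responsive factor KLF2 had 2129, 1560.1 and 2155 at 100 µM, against 3021, 2968 and 4039 in controls, a difference of -0.78 ± 0.29, while KLF4 and KLF6 overlapped at 0.05 ± 0.41 and -0.28 ± 0.80. ZFP36, which destabilises messenger RNAs with AU-rich elements, had 164, 127 and 219 at 100 µM, against 307, 327 and 314 in controls, a difference of -0.92 ± 0.39. IER5 had 1073, 788 and 1098 at 100 µM, against 1854, 1935 and 1584 in controls, a difference of -0.87 ± 0.39. MYC had 1072, 1198 and 2786 at 100 µM, against 2669, 2695 and 2206 in controls, where replicates 1 and 2 lay below the controls and replicate 3 above them. The dual-specificity phosphatases, Sprouty and SPRED proteins, which switch MAP kinase signalling off again, had a median of -0.47 over 10 genes, which was -0.13 with the covariate. DUSP6 had 660.4, 685 and 1497 at 100 µM, against 1491, 1921 and 857 in controls, with replicate 3 at 100 µM above control replicate 3.

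The promoter window of JUND (chr19:18281573-18281872, minus strand, RefSeq GRCh38.p14) is shown because JUND was, after POLGARF and AKNA, the named gene with the next smallest unadjusted p on the lower side and was also low at 10 µM. Capitals mark TGACGTCA, the letters known as the cyclic AMP response element, which read the same on both strands.
JUND: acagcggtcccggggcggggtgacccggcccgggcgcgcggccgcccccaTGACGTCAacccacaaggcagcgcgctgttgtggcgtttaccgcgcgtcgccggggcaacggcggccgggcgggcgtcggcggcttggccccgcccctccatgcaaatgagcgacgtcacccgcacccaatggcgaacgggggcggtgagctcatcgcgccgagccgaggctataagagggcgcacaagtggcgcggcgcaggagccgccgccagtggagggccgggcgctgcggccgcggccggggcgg
The match begins 200 bases before the start. It was found in 3 of 25 immediate early and feedback genes with a window (JUND, DUSP1 and DUSP8), in 3.87% of tested genes and in 1.85% of all windows.

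Notch signalling, in which a ligand on a neighbouring cell triggers cleavage of the receptor and activation of HES and HEY genes, was lower in many of its genes. Of 15 listed genes 14 were tested, 11 below 0 and 3 above, with a median of -0.30 that lay between -0.37 without 100 µM replicate 2 and -0.27 without 100 µM replicate 1 and was -0.35 with the covariate. The groups did not overlap for 5 lower genes (NOTCH1, DLL4, HES1, NRARP and LFNG) and 0 higher, beside 6.46% and 4.32% of all genes. Among ligands, the endothelial ligand DLL4 had 27.95, 30.03 and 38.1 at 100 µM, against 57.9, 63.7 and 63.9 in controls, a difference of -0.94 ± 0.37, and JAG1 overlapped at 0.09 ± 0.53. Among receptors, NOTCH1 had 1029.7, 1002 and 1125 at 100 µM, against 1658, 1937 and 1581 in controls, a difference of -0.71 ± 0.30, and NOTCH4 overlapped at -0.13 ± 0.23. Among targets, HES1 had 241, 213 and 200.2 at 100 µM, against 328, 332 and 383 in controls, a difference of -0.67 ± 0.29, while HEY1 overlapped at -0.17 ± 0.46. DLL4, NOTCH1 and HES1 thus had every exposed library below every control. RBPJ, the DNA-binding partner of the cleaved receptor, had 573, 594 and 359.9 at 100 µM, against 347, 315 and 399.9 in controls, with replicates 1 and 2 above the controls.

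Genes of endothelial identity were lower in part. Of 37 listed genes 33 were tested, 23 below 0 and 10 above, with a median of -0.17 that lay between -0.27 without 100 µM replicate 2 and -0.05 without 100 µM replicate 1. The exposed libraries lay wholly below the controls for 7 (CDH5, MCAM, CD34, CLEC14A, MMRN2, SOX17 and GATA2) and wholly above for 0, beside 6.46% and 4.32% of all genes. With the covariate the median was -0.11. Differences in the list ran from -0.91 to 0.72. Of the members with a higher mean at 100 µM, ICAM2 had 11460 against 6075 in controls and LYL1 had 1265 against 711. The groups overlapped in both. Among junction and surface genes, CLEC14A, a lectin of the vascular surface, had 606, 529.6 and 1032 at 100 µM, against 1191, 1124 and 1653 in controls, a difference of -0.91 ± 0.28. MCAM, an adhesion molecule, had 3223, 3240.3 and 4324 at 100 µM, against 6921, 7701 and 5200.3 in controls, a difference of -0.87 ± 0.46. CDH5, the adherens junction cadherin, had 1716, 2012 and 3583 at 100 µM, against 3963, 4432 and 3623 in controls, a difference of -0.79 ± 0.44 in which replicate 3 nearly reached the lowest control. PECAM1, another junction protein, overlapped at -0.07 ± 0.27. Among transcription factors, GATA2 had 323, 338 and 369 at 100 µM, against 594, 616 and 606 in controls, a difference of -0.82 ± 0.29 with both groups tight. SOX17, an arterial factor, had 82.7, 76.4 and 102 at 100 µM, against 115, 144 and 145 in controls, a difference of -0.63 ± 0.34. ERG and FLI1 overlapped at -0.46 ± 0.40 and -0.06 ± 0.35. Among effectors, the nitric oxide synthase NOS3 had 6809, 8693 and 4599 at 100 µM, against 7587, 8089.7 and 7791 in controls. EDN1, which encodes endothelin, had 85.03, 115 and 479 at 100 µM, against 204, 228 and 362 in controls. Both ranges overlapped, and the exposed replicate 3 was the lowest for NOS3 and the highest for EDN1. Markers of the epithelial parent moved with replicates, 6 of 7 tested of 16 listed being above 0 with a median of 0.48 that lay between 0.21 without control replicate 2 and 0.94 without control replicate 3 and was -0.0041 with the covariate. GRHL2, a factor that keeps epithelial genes active, was the member without overlap, at 181, 300.3 and 90.2 at 100 µM, against 56.2, 66.9 and 82.2 in controls, a difference of 1.32 ± 0.56. The summed value of the epithelial markers was 96651, 107969.9 and 61647 at 100 µM, against 48193, 36885 and 104656 in controls. That of the 33 endothelial genes was 98572, 134883 and 64421 at 100 µM, against 80891, 80073 and 101098 in controls. Both sums overlapped between the groups, CDH1 was at 0 as given above, and their part in the lower endothelial values was not tested.

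Lipid synthesis lists had medians not far below 0 and few members without overlap. These were 2 lower and 1 higher of 15 tested fatty acid synthesis genes. For cholesterol synthesis and uptake they were 1 lower and 0 higher of 24. Over all genes the shares were 6.46% lower and 4.32% higher. SREBF1, the factor that drives fatty acid synthesis, had 778, 646 and 760.3 at 100 µM, against 1015, 1023 and 1380.3 in controls, a difference of -0.64 ± 0.21. Its target FASN, fatty acid synthase, had 3807, 3883 and 2922 at 100 µM, against 5128, 5382 and 6409 in controls, a difference of -0.68 ± 0.25. For FASN the highest exposed library was well below the lowest control, and the difference was -0.75 ± 0.17 with the covariate. LSS, which closes the sterol ring, had 778, 844 and 889 at 100 µM, against 1275, 1164 and 1207 in controls, a difference of -0.54 ± 0.18. SCD, the stearoyl-CoA desaturase, had 2172, 2641 and 3706 at 100 µM, against 4039, 4376 and 3438 in controls, and overlapped. OXSM, a mitochondrial fatty acid synthesis enzyme, lay wholly above, with 312, 259 and 267 at 100 µM, against 258, 241 and 249 in controls, a difference of 0.16 ± 0.19. Over the lists, 10 of 15 tested fatty acid synthesis genes were below 0 with a median of -0.03 that lay between -0.19 without control replicate 3 and 0.07 without 100 µM replicate 1. For cholesterol synthesis and uptake 14 of 24 were below 0, with a median of -0.11 between -0.19 without control replicate 3 and 0.07 without 100 µM replicate 1.

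Among PPAR genes, the known targets of PFOA in rodent liver, the groups did not overlap for 0 higher members and 1 lower member. Over all genes the shares were 4.32% higher and 6.46% lower, so in a short list a count of 0 does not show that these genes were unchanged. Of 29 listed genes 24 were tested, 15 above 0 and 9 below, with a median of 0.10 that lay between -0.02 without control replicate 3 and 0.16 without control replicate 1. The receptor gene PPARA had 69.9, 113 and 86.9 at 100 µM, against 80.4, 95.2 and 74.1 in controls, while PPARG was below the filter with at most 0.827 at 100 µM and 1.61 in controls. Of the targets that PPAR agonists induce in many cells, PDK4, PLIN2 and CD36 were also below the filter. PLIN2 reached at most 1.16 at 100 µM and 1.01 in controls, and PDK4 was at 0 in all 6 libraries. ANGPTL4, an inhibitor of lipoprotein lipase, had 3726, 5179.8 and 1929 at 100 µM, against 1437, 1029 and 3267 in controls, a difference of 0.98 ± 0.78 with overlap through replicate 3 of both groups. CPT1A, the gate of mitochondrial fatty acid import, had 745, 719 and 898 at 100 µM, against 856, 916 and 637 in controls, a difference of -0.02 ± 0.27. FABP4, a fatty acid carrier of endothelial cells and adipocytes, lay wholly below, with 54.7, 49.1 and 47.2 at 100 µM, against 75.2, 62.1 and 73.1 in controls, a difference of -0.47 ± 0.25.

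Stress lists other than ATF4 were close to all genes or moved with the first component. Among 20 endoplasmic reticulum chaperones and regulators, 18 were below 0, with a median of -0.24 that lay between -0.43 without 100 µM replicate 3 and -0.18 without 100 µM replicate 1 and was -0.08 with the covariate. HSPA5, the chaperone BiP, had 6699, 7173 and 13458 at 100 µM, against 12880.4, 13147 and 8019.7 in controls. HYOU1, its partner, had 1737, 2086 and 2390.2 at 100 µM, against 3133, 3623 and 2769 in controls. HSPA5 overlapped because replicate 3 was above every control, and HYOU1 did not overlap, with a difference of -0.62 ± 0.33. In the NRF2 and antioxidant list 14 of 24 genes were above 0, with a median of 0.07 that ran from 0.09 without control replicate 3 to 0.13 without 100 µM replicate 1 when 1 library was left out, and was -0.03 after quantile normalization. HMOX1, the inducible haem oxygenase, had 269, 235 and 319 at 100 µM, against 435, 436 and 533 in controls, a difference of -0.77 ± 0.36, with every exposed library below every control. NQO1, a classical NRF2 target, overlapped at 0.08 ± 0.24.

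Ribosomal and mitochondrial genes were higher in exposed replicates 1 and 2 but not in replicate 3. Of 79 ribosomal protein genes 76 were above 0, with a median of 0.47 that lay between 0.28 without control replicate 2 and 0.80 without 100 µM replicate 3, was 0.06 after quantile normalization and 0.13 with the covariate. All 13 genes of the mitochondrial genome were above 0, with a median of 0.57 that lay between 0.28 without 100 µM replicate 2 and 1.02 without 100 µM replicate 3, was 0.01 after quantile normalization and 0.11 with the covariate. Without replicate 3 of both groups, a setting chosen after seeing the data, the medians were 0.97 for ribosomal protein genes and 1.24 for mitochondrially encoded genes. The groups did not overlap for 1 ribosomal protein gene and 0 mitochondrial genes on the higher side, beside 4.32% of all genes. In the nuclear-encoded respiratory chain 60 of 76 genes were above 0, with a median of 0.36 that lay between 0.22 without control replicate 2 and 0.61 without 100 µM replicate 3 and was 0.09 with the covariate. By complex the medians were 0.39 for complex I, 0.28 for complex II, 0.20 for complex III, 0.54 for complex IV and 0.34 for ATP synthase. The proteasome, which degrades tagged proteins, had 22 of 31 subunits above 0 and a median of 0.31, which was 0.11 with the covariate. PSMA4, PSMC1 and PSMD1 were its 3 members without overlap, for example PSMA4 with 3614, 3213 and 3325 at 100 µM, against 2728, 2237 and 2373 in controls.

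The lower doses place the differences at 100 µM in a series, with the control libraries shared by all doses. ASNS had 1314 ± 193 in controls, 1489 ± 61.8 at 1 µM, 1931 ± 497 at 10 µM and 2456 ± 236 at 100 µM (mean ± SD, n = 3 each). CHAC1 had 58.4 ± 39.2 in controls, 46.6 ± 15.8 at 1 µM, 116 ± 95.02 at 10 µM and 195 ± 120.2 at 100 µM. For ASNS the difference from 1 µM, 0.72 ± 0.24, was larger than that from 10 µM, 0.38 ± 0.24. JUND had 1253 ± 319 in controls, 1073 ± 322 at 1 µM, 740.0 ± 42.8 at 10 µM and 662 ± 35.3 at 100 µM. For MLLT1 the means were 1413 ± 112 in controls, 1297 ± 261 at 1 µM, 750.4 ± 348 at 10 µM and 709 ± 189 at 100 µM. In JUND and MLLT1 the values at 10 µM lay near those at 100 µM, with differences between these doses of -0.16 ± 0.26 and -0.01 ± 0.33, both smaller than their standard errors. MCM4 was at 729, 697 and 799 at 100 µM, against 866, 1003 and 972 at 10 µM, a difference of -0.35 ± 0.19. It was named against 10 µM by the rule that required separated libraries, so their separation is not a result. Of all genes 0.392% lay wholly below 10 µM. The list medians relative to control, at 1, 10 and 100 µM in that order, were 0.04, 0.32 and 0.39 for synthetases. For DNA replication they were -0.01, -0.10 and -0.32, and for immediate early genes 0.00, -0.53 and -0.52. Each library also had a score per list, higher where the list's genes were higher. Synthetase scores were 0.10, -0.27 and 0.47 at 10 µM, against -0.08, -0.16 and -0.19 in controls. Immediate early scores were -0.36, 0.44 and -0.95 at 10 µM, against 0.29, 0.43 and 0.05 in controls. In each list, replication included, replicate 2 at 10 µM lay beyond every control, opposite to the median. The medians thus do not show a graded dose response. In the direct difference, 100 µM minus 10 µM, the medians were 0.085 for synthetases, -0.12 for replication genes and 0.054 for immediate early genes, beside 0.046 for all genes.

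Between doses, limma without weights called no gene either. Against 10 µM, limma called 0 of 12233 genes at 100 µM (0% called), with 13 at an unadjusted p under 0.05 (0.0654% of genes higher and 0.0409% lower), while edgeR called 0, with 16 at an unadjusted p under 0.05. DESeq2 called 2, with 21 at an unadjusted p under 0.05, and both are named here after their values were seen. They were the histone gene H4C12, at 0 in the 3 libraries at 100 µM, against 6.27, 16.8 and 119.9 at 10 µM, and the read-through gene ATP5MF-PTCD1, at 0 in the 3 libraries at 100 µM, against 0, 0 and 95.6 at 10 µM. The second call rests on 1 library, and both genes can share reads with near-identical or overlapping genes. With library quality weights limma called 265 genes against 10 µM. The exposed libraries at 100 µM lay wholly above those at 10 µM for 35 genes and wholly below for 48 (0.286% and 0.392%). POLGARF had the smallest unadjusted p of the named genes, at 143, 90.1 and 181 at 100 µM, against 316, 358 and 375 at 10 µM, a difference of -1.39 ± 0.30. The others named by the rule were EAF2, COA5, SLC7A5, BEND7 and PRELID3A on the higher side and RASSF2, MCM4, ZFYVE26 and ACSS1 on the lower side. None of these others had an unadjusted p under 0.05, with limma values from 0.055 (EAF2) to 0.16 (PRELID3A). SLC7A5, the large neutral amino acid carrier, had 936, 998 and 945 at 100 µM, against 569, 712 and 918 at 10 µM, a difference of 0.41 ± 0.23. The libraries at 10 µM were the most spread of the 4 groups, with first component scores of 20.5, -77.3 and 121, so the standard error, shared by all groups, is set in part by them. Against 1 µM, limma called 0 genes (0%), with 68 at an unadjusted p under 0.05 (0.188% of genes higher and 0.368% lower), and edgeR and DESeq2 called 0, with 78 and 173 at an unadjusted p under 0.05. With library quality weights limma called 4024. The groups did not overlap for 188 genes that were higher and 482 that were lower at 100 µM (1.54% and 3.94%). Beside ASNS, FHIP2A and WDR89, the genes named on the higher side were CHAC1, at 188, 319 and 79.4 at 100 µM, against 56.8, 28.4 and 54.7 at 1 µM, and ZNF397, and on the lower side they were POLGARF, MLLT1, DBF4B, PVRIG and ZNF488. DBF4B, an activator of the kinase CDC7, had 215, 188 and 184 at 100 µM, against 339, 269.7 and 284 at 1 µM, a difference of -0.60 ± 0.19.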

How the data were processed

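RNA of 12 libraries, 3 for each of the groups 100 µM, 10 µM and 1 µM PFOA and vehicle at 48 h, was isolated with TRIzol, had an RNA integrity number above 9 and was sequenced as paired 150 bp reads on the DNBSEQ platform, per the labels' protocols. HISAT, Bowtie2 and DESeq2 and the build GRCh38.p14 are named in the submitters' processing notes, without versions. The deposited values are a normalised signal per gene, that is counts divided by a size factor by the authors. In all 12 libraries 100% of the values lay within 0.01 of a whole read after division by the library's step, so whole reads were recovered, 18444181 to 19466331 per library, at which a gene with a value near 10 rests on about as many reads.

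Values were analysed as log2(value + 1) over 12233 genes with a mean of at least 10. The fit used limma 3.58.1 (R 4.3.3) with a trended prior, all 12 libraries and a mean per group, and p-values were two-sided and adjusted by Benjamini and Hochberg over all tested genes, called under 0.05. On 3 against 3 libraries an exact permutation test of a single gene cannot go below 0.1. The fit was tested on simulated counts drawn independently for each library. These held no component shared by genes, unlike the real libraries, so that test does not show how the fit performs on them. edgeR 4.0.16 and DESeq2 1.42.0 were run on the recovered reads as alternatives, with other pseudocounts, filters, quantile normalization, library weights, the first principal component as a covariate, a replicate block and each library left out. Genes were named where the libraries of both groups did not overlap and the mean was at least 50, by unadjusted p, up to 15 in each direction against control and 5 against each lower dose, and from the 34 gene lists. Members and lists were chosen with earlier results of these data known, so lists are described by counts and medians with no test. Promoter windows are those of RefSeq for GRCh38.p14, matched by symbol, and no strand setting of the counting is stated, so overlapping genes can share reads. Some genes of these lists are not reported here.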

Additional observations from a re-analysis of the deposited data

How the results depend on the processing

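Of 19 alternatives for 100 µM against control, edgeR and DESeq2 among them, 18 called 0 genes and the exception, library quality weights, called 6792. Those weights called 265 against 10 µM and 4024 against 1 µM, DESeq2 called 2 against 10 µM, and the other alternatives called 0. The weights were estimated gene by gene, since the default estimate did not converge, and the cause of their counts was not tested. With each library left out in turn the called count stayed at 0. Genes at an unadjusted p under 0.05 against control numbered 244, between 82 and 506 with 1 library left out, 321 without replicate 3 of both groups (chosen after seeing the data), 439 with no filter on low values, 456 with only the groups compared, 367 after quantile normalization and 2015 adjusted for the first component. Replicate numbers did not pair the samples: deviations of same-numbered libraries correlated at -0.283, -0.516 and -0.728 over genes, and the replicate block called 0, with 196 at an unadjusted p under 0.05. Some named genes, none of which passed, changed sign under other settings, and the cause was not tested. Log2 differences of the other sign were, adjusted for the first component, CDKN1A -0.11, CPT1A 0.14, EPRS1 0.11, FARSA -0.041, FLI1 0.17, FOSL1 -0.053, GDF15 -0.076, HEY1 0.097, KLF6 0.29, MCM5 -0.15, TEK 0.19 and TK1 -0.16. They were, with library quality weights, JAG1 -0.20, KLF4 -0.47, NOTCH4 0.062, POLG -0.083, PPARA -0.062, PRIM1 -0.16, PSAT1 -0.17 and SLC7A11 -0.60. They were, after quantile normalization, ATF4 -0.0012, CDKN1A -0.12, FOSL1 -0.047, GDF15 -0.12, JAG1 -0.062 and NQO1 -0.12. With libraries left out, the ranges that crossed 0 were those of CDKN1A (-0.16 to 0.72), CPT1A (-0.27 to 0.085), E2F1 (-0.57 to 0.044), EPRS1 (-0.29 to 0.090), FLI1 (-0.44 to 0.12), FOSL1 (-0.0075 to 0.52), HEY1 (-0.50 to 0.079), JAG1 (-0.24 to 0.34), KLF4 (-0.37 to 0.24), KLF6 (-1.16 to 0.24), MCM5 (-0.14 to 0.79), NOTCH4 (-0.24 to 0.088), PECAM1 (-0.15 to 0.049), POLG (-0.18 to 0.39), PPARA (-0.086 to 0.26), PRIM1 (-0.23 to 0.16), PSAT1 (-0.24 to 0.58), SLC7A11 (-0.53 to 0.52), TEK (-1.05 to 0.050), TK1 (-0.14 to 1.03) and VWF (-0.086 to 0.47). Of list medians against control under the alternatives, 540 values stayed within the spread between libraries and 90 moved by more. Genes with a mean under 10 were not tested, and with 3 libraries a group a p that misses the threshold does not show that levels were alike.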

Other observations

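Among the lists that the text has not yet described, medians ran from -0.17 for YAP targets to 0.28 for the 3 tested leukocyte markers, beside 0.03 for all genes. Of 23 p53 targets, 12 were above 0 with a median of 0.05 that was -0.12 after quantile normalization. BBC3, which encodes the pro-apoptotic protein PUMA, had 454, 352 and 467 at 100 µM, against 653, 632 and 897 in controls, a difference of -0.77 ± 0.25. CDKN1A, the cell cycle inhibitor p21, had 7745, 10370.5 and 3625 at 100 µM, against 5438, 5451 and 7048 in controls, a difference of 0.16 ± 0.43. BBC3 was named by the rule that required separated libraries, while CDKN1A was not named by that rule and overlapped. In coagulation and fibrinolysis 7 of 15 genes were above 0. PLAT, the tissue plasminogen activator, had 17995, 19545 and 17865 at 100 µM, against 28757, 32956 and 20112 in controls, a difference of -0.53 ± 0.37. Every exposed library of PLAT lay below every control.

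Inflammation and NF-kB genes had a median of 0.01, with 12 of 23 above 0. The chemokine gene CCL2 had 714, 521 and 853 at 100 µM, against 999, 925 and 1047 in controls, a difference of -0.54 ± 0.29 without overlap. Interferon genes had a median of 0.24, with 16 of 25 above 0, which was 0.08 adjusted for the first component. In the list of hypoxia targets and glycolytic enzymes, BNIP3, a mitophagy receptor, had 730.3, 687 and 639.5 at 100 µM, against 542, 498 and 544 in controls, a difference of 0.38 ± 0.23. Its list had a median of 0.04 over 27 genes. Mitochondrial ribosomal protein genes were above 0 in 54 of 77, with a median of 0.21 that was 0.03 with the covariate. Of 13 YAP targets 4 were above 0, and their median of -0.17 was 0.11 with the covariate. Heat shock chaperones had a median of 0.19, with 9 of 14 above 0, that was -0.02 after quantile normalization. Among 12 BMP targets, with a median of -0.080, ID1, an inhibitor of helix-loop-helix factors, had 3369.7, 2209.8 and 2990.0 at 100 µM, against 4869.9, 4651 and 5839.7 in controls, a difference of -0.86 ± 0.33 without overlap. The remaining medians were 0.17 for replication-dependent histones, 0.16 for prostaglandin synthesis, 0.12 for metallothioneins and zinc export, 0.090 for mesenchymal transition, -0.046 for extracellular matrix and 0.0011 for genes of the receptors AHR, CAR and PXR. No gene of these lists passed limma's adjusted test.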
